A study of Mus musculus with 18 samples.

Results

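The early response of the wild-type receptor line to interleukin-3 (IL-3) was read from 3 libraries of cells after 2 days in IL-3 and 3 libraries of untreated cells, which are 6 of the 18 libraries of the series and were chosen by those labels. The cells are FDH cells, immortalized fetal liver cells from E14.5 embryos of BALB/c mice. Their strain background is labelled bc-/- bIL-3-/-, that is without the beta chains through which the mouse IL-3 receptor signals, and they were transduced with bc and with the wild-type IL3Ra chain and used at passages 10 to 12. Untreated cells were in growth medium (IMDM, 10% serum) with doxycycline and mouse stem cell factor (SCF) at 100 ng/ml. Day 2 cells were washed with PBS and plated in a medium that lists IL-3 at 100 ng/ml and neither SCF nor doxycycline, so the gain of IL-3 and the loss of SCF and doxycycline cannot be told apart. A companion line carries IL3Ra with the P248L substitution on the same background, and it is used below only where the wild-type response is set beside its response. Each receptor was studied in 1 line, so receptor and line cannot be told apart either. Wild-type cells after 5 days in IL-3 (3 libraries) show where a day 2 level stood later.

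IL-3 binds the alpha chain IL3Ra, which pairs with the common beta chain (bc) or, in mice, with the related bIL-3 chain. The beta chain carries the kinase JAK2, which phosphorylates STAT5, and it also starts the RAS-MAPK and PI3K pathways. SCF acts through KIT, a receptor tyrosine kinase that uses RAS-MAPK and PI3K signalling without a beta chain. In the marrow SCF maintains early progenitors, while IL-3 supports the growth and maturation of neutrophils, macrophages, basophils, mast cells and megakaryocytes. Neutrophil precursors make their granules in order: primary granules with myeloperoxidase and serine proteases, then secondary and tertiary granules with lactoferrin, lipocalin and gelatinase.

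The 6 libraries held 17126380 to 22627414 reads in genes. Levels are in CPM (read counts per 1000000) with library totals rescaled by TMM, and since they are not divided by gene length they compare libraries, not genes. The 3 values after a gene are those of replicates 1, 2 and 3. The words rose, fell and changed are used where edgeR's quasi-likelihood test gave a p under 0.05 after Benjamini-Hochberg adjustment, and all log2 fold changes are day 2 minus untreated, given with their standard error (SE). Nothing in the labels ties the replicates to separate cultures, and the p-values therefore measure the spread between libraries, which may be technical. Replicates differed by more than counting error, with a chi-square per degree of freedom of 4.92 to 36.6 between untreated and 9.78 to 16.4 between day 2 libraries. In the P248L line untreated library 1 and day 2 library 3 stood apart from the others of their groups, at 93.7 to 204 for the pairs that include either. In bulk libraries fewer cells of a type and less RNA per cell cannot be told apart.

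Of 11942 genes tested, 5223 (43.7%) changed between untreated and day 2, with 2630 (22%) raised and 2593 (21.7%) lowered. Counts of list members raised and lowered further on are to be read beside these shares of 22% and 21.7%. They come from the fit of all 18 libraries. A fit of only the 6 libraries called 6727 of 11073 genes. Without the 2 P248L libraries that stood apart 6839 of 12077 were called. The 3 libraries of one group did not overlap the 3 of the other in 64.2% of tested genes. Rises and falls were about equally many, but changes of 8-fold or more were mostly rises. Among the 4948 changed genes with more than 3 reads in both groups, 982 rose and 1121 fell at least 2-fold, 260 rose and 91 fell at least 8-fold, and 28 rose and 1 fell at least 128-fold. The balance rests on the scaling: 50.4% of changed genes were raised with TMM, 41.6% with upper-quartile factors and 36.0% with library size alone, which shifted the median fold change by -0.17 on the log2 scale.

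**Figure D1:**
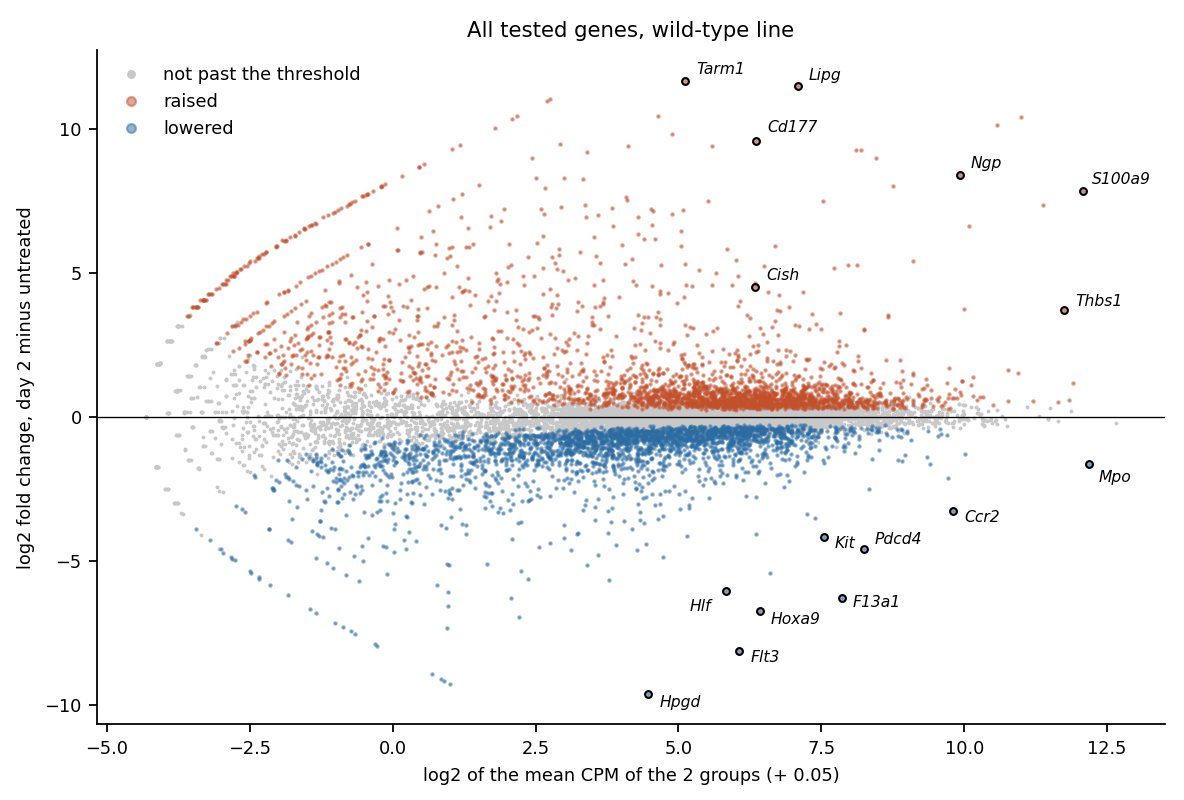
Each point is a tested gene, with the log2 of its mean CPM over the untreated and day 2 groups on the x axis and its log2 fold change (day 2 minus untreated) on the y axis. Raised genes (2630), lowered genes (2593) and genes not past the threshold are coloured apart, and the points farthest from 0 lie above it more often than below it.

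The progenitor receptor genes Kit and Flt3 lost most of their mRNA. Kit was at 374, 341 and 343 CPM untreated and 23.8, 22.4 and 13.5 CPM at day 2. The day 2 libraries lay far below the untreated ones, a log2 fold change of -4.15 ± 0.22 (SE; edgeR adjusted p = 7.84e-11). Flt3, the receptor tyrosine kinase of early lymphoid and myeloid progenitors, was at 126, 130.3 and 142 CPM untreated and 0.566, 0.689 and 0.157 CPM at day 2. It fell nearly to the limit of counting, with a log2 fold change of -8.12 ± 0.33 (SE; edgeR adjusted p = 2.30e-12). The ligand gene Kitl had no read in any of the 6 libraries.

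Receptor chains of the IL-3 family moved in different directions. Csf2rb, the gene of bc, was at 92.1, 80.2 and 77.8 CPM untreated and 308, 293 and 213 CPM at day 2. Its close copy Csf2rb2, the gene of bIL-3, was at 102, 104 and 91.4 CPM untreated and 352, 374 and 261 CPM at day 2. Both rose without overlap, with log2 fold changes of 1.70 ± 0.16 and 1.73 ± 0.14 (SE; edgeR adjusted p = 9.78e-08 and 1.37e-08). The 2 genes are nearly identical, so their split of reads is uncertain, and reads of the transduced bc and of what remains of the deleted genes cannot be separated here. Csf2ra, the alpha chain of the GM-CSF receptor, which also signals through bc, was at 8.25, 8.01 and 10.1 CPM untreated and 57.8, 48.0 and 46.8 CPM at day 2. Its day 2 libraries were all higher, a log2 fold change of 2.53 ± 0.17 (SE; edgeR adjusted p = 1.71e-09). Il3ra itself was at 7.41, 11.2 and 7.36 CPM untreated and 3.05, 2.18 and 2.77 CPM at day 2 and fell by 1.69 (SE 0.35) on the log2 scale (edgeR adjusted p = 7.08e-04). Whether the transduced IL3Ra adds to these reads depends on its sequence, which is not given in the sources used here.

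Over the list of cytokine receptors, 15 of 34 tested members rose and 12 fell (12 and 12 with library size alone), against 22% and 21.7% of all tested genes, and the median log2 fold change was 0.21 against 0 for all tested genes. The IL-33 receptor Il1rl1 was at 3.28, 3.60 and 3.42 CPM untreated and 41.1, 47.7 and 26.3 CPM at day 2, a log2 fold change of 3.48 ± 0.24. The IL-4 receptor chain Il4ra was at 20.2, 20.5 and 18.98 CPM untreated and 58.4, 56.3 and 64.7 CPM at day 2 and rose by 1.59 ± 0.16. In both the lowest day 2 library exceeded the highest untreated one. The receptors for G-CSF and M-CSF fell. Csf3r, the G-CSF receptor, was at 38.7, 35.3 and 42.3 CPM untreated and 13.99, 10.5 and 8.04 CPM at day 2, and fell by 1.83 (SE 0.22). Csf1r, the M-CSF receptor, was at 28.5, 32.2 and 35.6 CPM untreated and 10.8, 7.92 and 11.7 CPM at day 2, and fell by 1.66 (SE 0.16). Il6ra and the interferon receptor chains Ifnar1 and Ifnar2 fell by 1.63, 0.76 and 1.21. Between day 2 and day 5, over which 8429 genes (70.6%) changed, Csf1r rose, and at day 5 it stood at 203 ± 23.0 CPM (SD, n = 3), above both earlier groups.

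Genes of the signalling pathway under KIT moved in both directions. Of 44 tested genes of the pathway, 16 rose, 9 fell (Kit among them) and 19 did not pass the test (12 and 11 raised and lowered with library size alone). Of all tested genes 22% rose and 21.7% fell, so the falls were near the share of all genes. Rasgrp4, a RAS exchange factor of myeloid and mast cells, was at 2.09, 2.51 and 2.35 CPM untreated and 52.6, 48.5 and 44.3 CPM at day 2, a log2 fold change of 4.38 ± 0.18 (SE; edgeR adjusted p = 2.34e-12). Pik3cb and Pik3cd, catalytic PI3K subunits, rose by 1.56 ± 0.16 and 1.12 ± 0.13 on the log2 scale. The lipid phosphatase Inpp5d and the ubiquitin ligase Cblb, brakes on receptor signalling, fell by 0.56 (SE 0.13) and 0.80 (SE 0.15). The adaptor Grb2 and the phosphatase Ptpn6 did not pass, at -0.15 ± 0.10 and -0.03 ± 0.14.

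**Figure D2:**
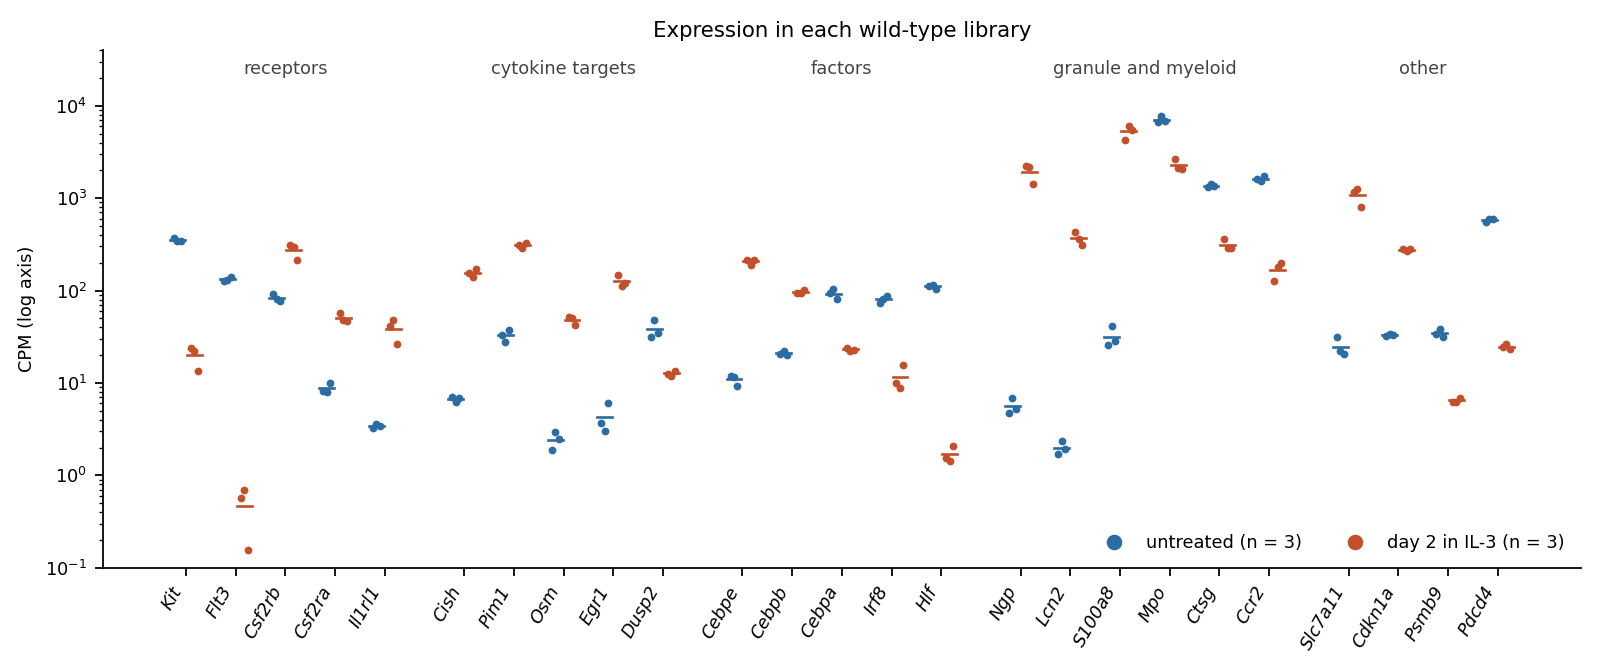
CPM on a log axis for genes grouped by role, with 1 point for each of the 3 untreated and 3 day 2 wild-type libraries and a bar at each group's mean. In each gene drawn the 2 groups of libraries do not overlap; Kit, Flt3, Cebpa, Irf8, Hlf, Mpo, Ctsg, Ccr2, Psmb9, Pdcd4 and Dusp2 are lower at day 2 and the others are higher.

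Most genes that answer to STAT5 rose. Cish, a feedback inhibitor of cytokine receptors, was at 7.11, 6.19 and 6.88 CPM untreated and 153, 141 and 170.0 CPM at day 2. The groups were far apart, with a log2 fold change of 4.52 ± 0.21 (SE; edgeR adjusted p = 1.70e-11). Pim1, a survival kinase, was at 33.1, 27.6 and 37.3 CPM untreated and 309, 288 and 329 CPM at day 2. Its relative Pim2 was at 5.32, 5.88 and 5.63 CPM untreated and 26.8, 36.5 and 32.7 CPM at day 2. The 2 genes rose with no overlap, by 3.24 ± 0.15 and 2.51 ± 0.30 on the log2 scale. Osm, the cytokine oncostatin M, was at 1.89, 2.94 and 2.48 CPM untreated and 51.5, 50.9 and 42.6 CPM at day 2, a log2 fold change of 4.29 ± 0.31 (SE; edgeR adjusted p = 3.33e-09). The survival protein Bcl2l1 was at 24.8, 27.4 and 22.5 CPM untreated and 100.0, 112 and 109 CPM at day 2 and rose by 2.10 ± 0.17. Socs3, another feedback inhibitor, was low at 2.19, 3.37 and 2.71 CPM untreated and 5.97, 7.69 and 7.21 CPM at day 2 and rose by 1.32 ± 0.18.

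Of the 17 tested members of the STAT5-responsive list 13 rose and the other 4 did not pass the test, with a median log2 fold change of 1.32. With upper-quartile factors 13 were raised and 2 lowered, and with library size alone 13 and 3. Myc, the growth factor-dependent transcription factor, was at 359.5, 357 and 332 CPM untreated and 285, 218 and 261 CPM at day 2. Its day 2 libraries were all lower, but it did not pass in this fit (-0.46 ± 0.19). It passed with upper-quartile factors (-0.56), with only the 6 libraries compared (-0.47) and with only the 9 wild-type libraries (-0.46). Without the 2 P248L libraries that stood apart Myc passed as well, at -0.46. Stat5a was at 44.8, 47.8 and 45.4 CPM untreated and 28.0, 25.1 and 27.5 CPM at day 2 and fell by 0.77 (SE 0.17). Stat5b was at 84.4, 84.3 and 85.6 CPM untreated and 51.3, 49.97 and 50.4 CPM at day 2 and fell by 0.74 (SE 0.10). Among the 11 JAK and STAT genes 3 rose and 5 fell, against 22% and 21.7% of all tested genes. With upper-quartile factors the counts were 2 and 6, and with library size alone 1 and 6.

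The core STAT motif TTCNNNGAA, 1 of 8 motifs searched on both strands, was looked for in RefSeq promoter windows (GRCm38.p6, 250 bases before to 50 bases after the annotated start). Beside it and the amino acid response motif shown further on, the others were TTGCGCAA (C/EBP), TGACGTCA (CRE), CACGTG (E-box), TCACCCCA (SREBP) and those of NF-kB and p53, whose matches are not described here. It was present in 8.30% of all 32851 windows and in 9.55% of the 27025 genes that have a window. Of the STAT5-responsive list 3 of 11 genes with a window held it: Cish and Socs3, which rose, and Bcl6, which did not pass the test. The stretches around the motif are shown for Cish and Socs3, the feedback inhibitors described above, 5′ to 3′ on the strand of the gene with the motif in capitals. Cish (chr9:107296629-107296678, plus strand) has a pair of motifs, of which the first begins at the annotated start. Socs3 (chr11:117969482-117969550, minus strand) has 1, which begins 154 bases before the start.
Cish: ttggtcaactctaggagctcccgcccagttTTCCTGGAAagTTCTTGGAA
Socs3: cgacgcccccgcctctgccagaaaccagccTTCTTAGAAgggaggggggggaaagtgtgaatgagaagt
Of the 10 list members that rose and have a window, 8 lack these letters in it, among them Pim1 and Osm. The match describes sequence only.

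Several immediate early genes of the MAPK pathway were higher at day 2. Egr1, a zinc finger factor induced soon after receptor activation, was at 3.68, 3.06 and 6.08 CPM untreated and 149, 112 and 120.4 CPM at day 2. The lowest day 2 library was far above the highest untreated one, with a log2 fold change of 4.90 ± 0.34 (SE; edgeR adjusted p = 2.35e-09). The AP-1 subunit Fosl1 was at 1.59, 1.01 and 1.46 CPM untreated and 22.6, 14.7 and 14.8 CPM at day 2. Klf6, an early response zinc finger factor, was at 40.0, 43.7 and 41.9 CPM untreated and 219.7, 211 and 187 CPM at day 2. Both rose without overlap, by 3.69 ± 0.43 and 2.30 ± 0.22 on the log2 scale. Fos, Fosb, Junb and Klf2 rose too, by 2.73 ± 0.28, 4.82 ± 0.78, 1.45 ± 0.32 and 3.07 ± 0.35.

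Of the MAPK list of targets and feedback genes, 21 of 37 rose and 6 fell, with a median of 1.28 (21 and 8 with library size alone). Its lowered members included Dusp2 and Dusp4, phosphatases that switch the pathway off, while the phosphatase gene Dusp1 of the same list rose. Dusp2 was at 31.8, 47.7 and 34.7 CPM untreated and 12.5, 12.0 and 13.6 CPM at day 2 and fell by 1.58 (SE 0.23). Dusp4 was at 27.6, 22.0 and 21.8 CPM untreated and 9.67, 11.5 and 11.1 CPM at day 2 and fell by 1.14 (SE 0.26). Dusp6, the phosphatase of ERK, was at 111, 116 and 119.6 CPM untreated and 95.6, 94.0 and 105 CPM at day 2. It did not pass in this fit (-0.24 ± 0.16; edgeR adjusted p = 0.252). It was lowered past the threshold with only the 6 libraries compared (-0.25) and with library size alone (-0.41).

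Transcription factors of the myeloid series moved in both directions. Cebpe, needed for the secondary granule genes, was at 11.8, 11.7 and 9.27 CPM untreated and 214, 190.3 and 215 CPM at day 2. It rose with a log2 fold change of 4.24 ± 0.27 (SE; edgeR adjusted p = 6.23e-10). Cebpb, the C/EBP member of cytokine-driven granulopoiesis, was at 20.4, 22.4 and 20.1 CPM untreated and 93.6, 93.8 and 103 CPM at day 2 and rose by 2.20 ± 0.32. Cebpa, needed to form granulocyte and monocyte progenitors, was at 93.4, 104 and 80.3 CPM untreated and 24.0, 22.4 and 22.9 CPM at day 2, the opposite direction without overlap, a fall of 2.00 (SE 0.21). Irf8, the factor of monocyte and dendritic cell fate, was at 74.1, 80.5 and 88.2 CPM untreated and 10.0, 8.89 and 15.6 CPM at day 2 and fell by 2.82 (SE 0.20). C/EBP factors with a role in maturation were higher at day 2, and the member of the progenitor stage lower. The helix-loop-helix repressors Id2 and Bhlhe40 rose by 3.48 ± 0.22 and 3.44 ± 0.13. Bhlhe40 was at 10.8, 13.2 and 14.4 CPM untreated and 141, 148 and 131 CPM at day 2, with the groups well apart.

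Smaller rises were those of Gfi1, a repressor required in granulocyte precursors (0.89 ± 0.17), and Rara, a retinoic acid receptor (1.65 ± 0.21). Gfi1b, the erythroid and megakaryocytic relative of Gfi1, fell by 0.97 (SE 0.26), and Zeb2 by 0.81 (SE 0.19). Of the 38 tested factors of the list 23 rose and 6 fell, with a median of 0.83. Runx1 and Nfe2 did not pass, at 0.13 ± 0.13 and 0.13 ± 0.17.

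Genes of stem and progenitor cells fell in the majority. Hlf, a bZIP factor of hematopoietic stem cells, was at 113, 116 and 105 CPM untreated and 1.53, 1.43 and 2.09 CPM at day 2. The groups were far apart, with a log2 fold change of -6.05 ± 0.22 (SE; edgeR adjusted p = 8.47e-13). Hoxa9, which sustains progenitor growth, was at 163, 117 and 229 CPM untreated and 1.61, 1.78 and 1.41 CPM at day 2. The untreated libraries differed widely among themselves, but the lowest was far above all day 2 libraries, a log2 fold change of -6.73 ± 0.70 (SE; edgeR adjusted p = 4.99e-07). Genes Hoxa7 and Hoxa10 of the same cluster, and Hoxb8, had no read in any of the 6 libraries. The cells are immortalized, and only the untreated medium held doxycycline. Whether an immortalizing transgene adds to the reads of Hoxa9 was not tested, so the fall of Hoxa9 cannot be assigned to the endogenous gene. Sox4, a factor of immature blood cells, was at 158, 149.7 and 154 CPM untreated and 9.41, 8.61 and 9.71 CPM at day 2 and fell by 4.05 (SE 0.30).

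Of 23 tested genes of the list 16 fell and 3 rose, with a median of -1.32. Cd34, the surface sialomucin of progenitors, was at 697, 714 and 723 CPM untreated and 215, 265 and 272 CPM at day 2 and fell by 1.504 (SE 0.13). The adaptor Lmo2, the RNA-binding protein Msi2 and the factors Meis1 and Myb fell by 1.48, 1.68, 1.21 and 0.78. Against the direction of the list, Prom1, the gene of the stem cell surface protein CD133, was at 0.249, 0.155 and 0.0887 CPM untreated and 34.3, 37.2 and 29.2 CPM at day 2. Procr, the endothelial protein C receptor of stem cells, was at 1.24, 1.70 and 1.42 CPM untreated and 8.06, 6.08 and 7.10 CPM at day 2. Mycn, the MYC relative, was the third gene that rose, by 2.74 ± 0.38. Of the fetal program, the chromatin protein Hmga2 was at 177, 189 and 215 CPM untreated and 36.3, 35.6 and 35.4 CPM at day 2 and fell by 2.44 (SE 0.15), while the RNA-binding protein Lin28a was at 0.199, 0.271 and 0.133 CPM untreated and 8.54, 9.93 and 5.90 CPM at day 2 and rose.

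Primary granule genes moved both ways, while each tested gene of the later granules rose. Mpo, myeloperoxidase, was at 6748, 7654 and 6817 CPM untreated and 2647, 2099 and 2084 CPM at day 2. It had the largest loss of mean CPM of any gene, and fell by 1.64 (SE 0.24) on the log2 scale. Ctsg, cathepsin G, was at 1305, 1415 and 1359.7 CPM untreated and 363, 288 and 289 CPM at day 2 and fell by 2.12 (SE 0.24). Other primary granule genes rose without overlap. Ctsc, the protease that activates the granule serine proteases, was at 104, 106 and 106 CPM untreated and 423, 440.1 and 521 CPM at day 2, and Elane, neutrophil elastase, at 11.8, 11.6 and 11.6 CPM untreated and 35.0, 25.3 and 27.9 CPM at day 2. Prtn3, proteinase 3, was at 251, 299 and 252 CPM untreated and 279, 297 and 373 CPM at day 2 and did not pass, with overlapping groups. In all, 4 of 10 primary granule genes rose and 2 fell.

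Each of the 19 tested genes of secondary and tertiary granules rose, with a median of 3.75, and each also rose with library size alone. Ngp, neutrophilic granule protein, was at 4.72, 6.89 and 5.23 CPM untreated and 2237, 2156 and 1412 CPM at day 2, a log2 fold change of 8.42 ± 0.41 (SE; edgeR adjusted p = 2.38e-11). Lcn2, the iron-withholding lipocalin, was at 1.69, 2.36 and 1.95 CPM untreated and 434, 358 and 314 CPM at day 2. Ltf, lactoferrin, was at 1.64, 2.71 and 1.42 CPM untreated and 123, 125 and 90.7 CPM at day 2. In each of these the lowest day 2 library was many times the highest untreated one. Camp, the cathelicidin gene, was at 0.398, 0.735 and 0.532 CPM untreated and 41.0, 47.5 and 36.0 CPM at day 2. The collagenase Mmp8 was at 4.43, 4.91 and 5.32 CPM untreated and 165, 109.7 and 76.4 CPM at day 2. Cd177, a surface and granule protein of neutrophils, was at 0.0995, 0.271 and 0.222 CPM untreated and 197, 159.9 and 133 CPM at day 2. These were low in each untreated library and well above that in each day 2 library. Anxa1, an annexin stored in gelatinase granules, started from a high level, at 138, 153 and 132 CPM untreated and 1796, 2130.0 and 1754 CPM at day 2, and rose by 3.75 ± 0.17. The gelatinase gene Mmp9 was still at 1.44, 2.07 and 2.14 CPM at day 2 and stood at 106 ± 28.0 CPM at day 5. Lyz2, lysozyme, was at 62.8, 80.6 and 55.2 CPM untreated and 605, 525 and 491 CPM at day 2, and at 36326 ± 4156 CPM at day 5.

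Genes of late neutrophil maturation rose in 19 of 23 cases and fell in 4, with a median of 4.02. S100a8, a subunit of the cytosolic calprotectin complex, was at 25.9, 41.1 and 28.2 CPM untreated and 4250.1, 6098 and 5516 CPM at day 2. Its partner S100a9 was at 29.3, 45.0 and 35.5 CPM untreated and 7686, 9569 and 8476 CPM at day 2, the largest gain of mean CPM of any gene. Stfa2l1, of the stefin A family of cathepsin inhibitors, was at 0.646, 1.86 and 1.46 CPM untreated and 709, 810.1 and 594 CPM at day 2. In these 3 genes the groups were far apart. Stfa2 and Stfa3, close copies between which reads may be split, were at 481, 714 and 462 CPM and at 490.4, 741 and 528 CPM at day 2, from under 2 CPM. Cxcr2, the neutrophil chemokine receptor, was at 17.4, 12.1 and 13.7 CPM untreated and 54.2, 61.3 and 46.2 CPM at day 2 and rose by 1.90 ± 0.18. Among the members that fell were Csf3r and the lectins Clec4d and Clec4e. Clec4e was at 272, 267 and 262 CPM untreated and 168, 176 and 141 CPM at day 2 and fell by 0.73 (SE 0.13).

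Lists of markers of other cell types held genes with reads and genes at 0. Of the erythroid list, the erythropoietin receptor Epor and the transferrin receptor Tfrc did not pass, at -0.30 ± 0.70 and 0.48 ± 0.22. Tfrc did pass with only the 6 libraries compared (0.47) and with only the 9 wild-type libraries (0.48). Hba-a1, Hba-a2 and Slc4a1 had no read. The hepatocyte genes Alb and Ttr and the endothelial gene Cdh5 had no read either. Of the 3 tested genes of their list 1 rose and 1 fell. The list summed to 0.798 to 1.59 CPM untreated and 13.5 to 14.4 CPM at day 2. Of the 8 tested basophil genes 7 rose and 1 fell, and their summed level was 105 to 161 CPM untreated and 460.0 to 649 CPM at day 2. Cyp11a1, a steroid side chain enzyme of basophils and mast cells, was at 4.62, 6.38 and 7.41 CPM untreated and 164, 168 and 135 CPM at day 2, and rose by 4.66 ± 0.25. The basophil protease Mcpt8 was at 20.0, 22.6 and 16.7 CPM untreated and 10.8, 8.89 and 6.84 CPM at day 2 and fell by 1.16 (SE 0.29), and the IgE receptor chain Fcer1a had no read. Of the 5 tested mast cell genes 4 rose, with a summed level of 511 to 676 CPM untreated and 814 to 1136 CPM at day 2. Cpa3, carboxypeptidase A3, was at 578, 658 and 496 CPM untreated and 914, 1099 and 786 CPM at day 2, while the tryptase genes Tpsab1 and Tpsb2 and the chymase gene Mcpt4 had no read.

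Of the 6 tested eosinophil genes 3 rose and 1 fell. The summed level of the list was 15.4 to 16.6 CPM untreated and 15.9 to 22.7 CPM at day 2. Prg2, major basic protein, had 2 reads in the untreated libraries together and was at 4.40, 5.34 and 3.60 CPM at day 2, a ratio of 151 (95% counting interval 41.5 to 1256), and Ear1, Ear2 and Ear6 had no read. Of the 8 tested megakaryocyte genes 5 rose and 0 fell (4 and 0 with library size alone), with a median of 1.96. Thbs1, thrombospondin, which other myeloid cells also make, was at 519, 413 and 528 CPM untreated and 7143, 6075 and 6004 CPM at day 2. This was the gain of mean CPM next after that of S100a9, whereas Pf4, platelet factor 4, was at 1.99, 2.40 and 0.976 CPM untreated and 2.14, 2.30 and 2.77 CPM at day 2 and did not pass (0.41 ± 0.37). Of the 8 tested dendritic cell and antigen presentation genes 2 rose and 2 fell, with a median of 0.04. Their list summed to 160 to 173 CPM untreated and 33.7 to 43.3 CPM at day 2. Siglech, a marker of plasmacytoid dendritic cells, was at 3.38, 4.37 and 3.95 CPM untreated and had no read at day 2, at least 78.2-fold lower against a floor of 3 reads over the group. The part of such cells in the results was not tested.

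Monocyte and macrophage genes went both ways, 13 of 24 up and 6 down. The scavenger receptor Msr1 was at 0.149, 0.116 and 0.266 CPM untreated and 33.1, 32.5 and 36.3 CPM at day 2. The lectin Lgals3, galectin-3, was at 0.398, 0.387 and 0.177 CPM untreated and 42.4, 50.5 and 46.7 CPM at day 2. The IgG receptor Fcgr1 was at 1.64, 1.90 and 2.17 CPM untreated and 41.1, 41.8 and 51.1 CPM at day 2. All 3 rose without overlap, by 7.55 ± 0.26, 7.15 ± 0.29 and 4.54 ± 0.18. Ccr2, the chemokine receptor of classical monocytes, was at 1619, 1524 and 1727 CPM untreated and 127, 181 and 197 CPM at day 2, a fall of 3.27 (SE 0.30) and the loss of mean CPM next after that of Mpo. F13a1, coagulation factor XIII, was at 446, 440.1 and 484 CPM untreated and 7.28, 5.51 and 4.75 CPM at day 2, and fell by 6.28 (SE 0.23). Cx3cr1, the fractalkine receptor, fell by 2.59. The tissue macrophage genes C1qa, C1qc and Cd163 had no read. The summed level of the list was 2655 to 2969 CPM untreated and 1188 to 1207 CPM at day 2.

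**Figure D3:**
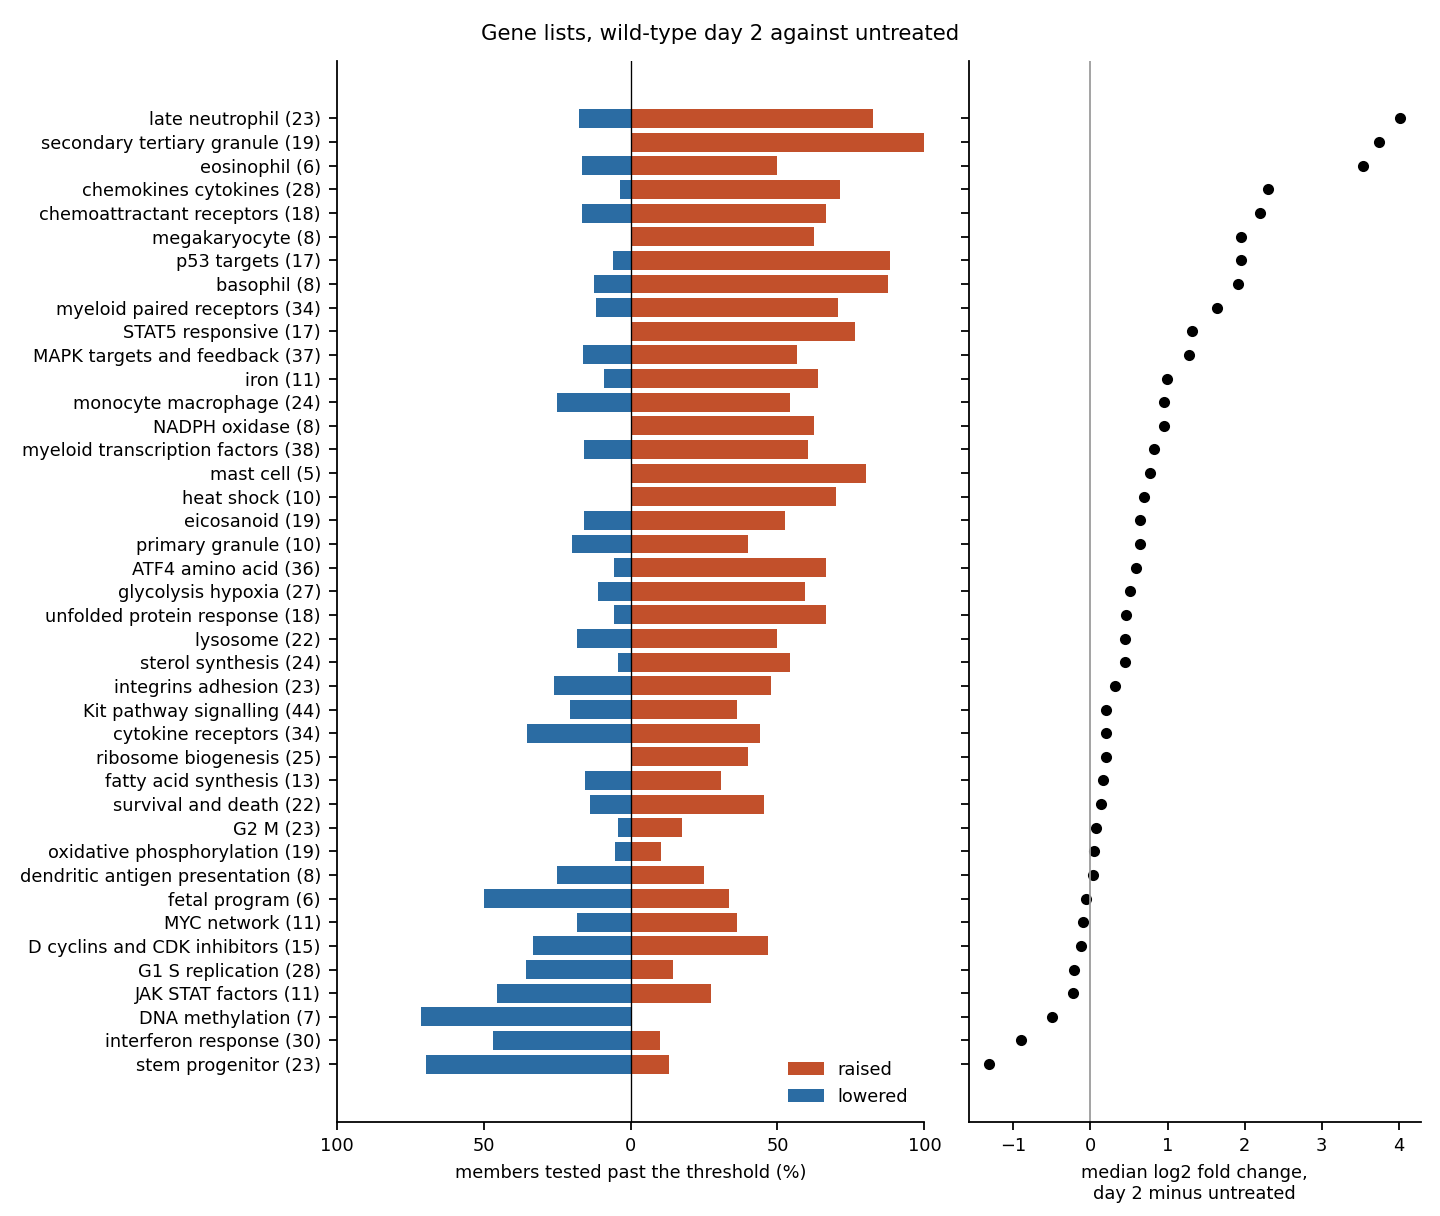
For each gene list with at least 5 tested genes (number in brackets), the left panel has the percentage of tested members raised (right of 0) or lowered (left of 0) at day 2, and the right panel the median log2 fold change. All 19 tested members of the secondary and tertiary granule list were raised (median 3.75), and the stem and progenitor list has the lowest median (-1.32), while the eosinophil median is 2.45 with unread groups at their bound and those of the G2/M, dendritic, oxidative phosphorylation, fatty acid and survival lists turn negative with library size alone.

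Secreted proteins of inflammatory myeloid cells rose in 20 of 28 tested cases and fell in 1, with a median of 2.31. The chemokine Ccl6 was at 2.74, 5.11 and 1.82 CPM untreated and 779, 957 and 839 CPM at day 2, a log2 fold change of 8.04 ± 0.44 (SE; edgeR adjusted p = 1.04e-10). At day 5 it stood at 19399 ± 1778 CPM. Spp1, osteopontin, was at 21.7, 22.4 and 19.6 CPM untreated and 2102, 2303 and 2019 CPM at day 2. The IL-1 receptor antagonist gene Il1rn was at 0.746, 0.929 and 0.976 CPM untreated and 24.8, 30.2 and 18.9 CPM at day 2. The 2 genes rose with no overlap, by 6.65 ± 0.28 and 4.78 ± 0.27. Vegfa, the vascular growth factor, was the member that fell, at 49.0, 48.7 and 64.1 CPM untreated and 30.7, 25.5 and 30.6 CPM at day 2. Ccl9, another abundant chemokine of these cells, was at 701, 807 and 737 CPM untreated and 731, 839 and 666 CPM at day 2 and did not pass (-0.01 ± 0.15).

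Receptors for chemoattractants rose in 12 of 18 cases and fell in 3. The C5a receptor gene C5ar1 was at 0.0995, 0.232 and 0.177 CPM untreated and 32.3, 26.2 and 25.9 CPM at day 2. The C3a receptor gene C3ar1 was at 0.646, 1.47 and 0.932 CPM untreated and 60.4, 69.8 and 65.4 CPM at day 2. The leukotriene B4 receptor gene Ltb4r1 was at 2.69, 3.02 and 2.31 CPM untreated and 53.6, 49.5 and 58.2 CPM at day 2. All 3 rose without overlap, by 7.28 ± 0.26, 5.96 ± 0.27 and 4.33 ± 0.23 on the log2 scale. The members that fell were Ccr2, Cx3cr1 and the sphingosine receptor S1pr1 (-1.25 ± 0.16).

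Among paired immune receptors, whose members carry activating or inhibitory tails, 24 of 34 rose and 4 fell. Tarm1, an activating receptor of neutrophils, had 1 read in the untreated libraries together and was at 76.5, 66.6 and 64.8 CPM at day 2, a ratio of 4782 (95% counting interval 858 to 188943). The inhibitory receptor Pilra was at 0.348, 0.503 and 0.444 CPM untreated and 60.4, 56.1 and 59.6 CPM at day 2. The inhibitory receptor Lilrb4 was at 12.4, 16.4 and 13.2 CPM untreated and 529.5, 619 and 489 CPM at day 2. Both rose without overlap, by 7.05 ± 0.20 and 5.28 ± 0.19. The signalling chains shared by activating receptors did not pass: Fcer1g had a log2 fold change of 0.20 ± 0.27 and Tyrobp of 0.03 ± 0.22.

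Integrins that share the CD18 chain moved apart. Itgam, CD11b, was at 133, 122 and 148 CPM untreated and 419.9, 430.3 and 368 CPM at day 2. Its partner Itgb2, CD18, was at 107, 113 and 127 CPM untreated and 504, 445 and 405 CPM at day 2. They rose without overlap, by 1.59 ± 0.16 and 1.96 ± 0.14. Itgal, CD11a, which uses the same partner, was at 334, 299.7 and 335 CPM untreated and 167, 151 and 154 CPM at day 2 and fell by 1.04 (SE 0.15). Of the NADPH oxidase, which makes superoxide, 5 of 8 genes rose and 3 did not pass. The cytosolic subunit Ncf1 was at 275, 281 and 292 CPM untreated and 671, 698 and 694 CPM at day 2 and rose by 1.28 ± 0.09. The catalytic subunit Cybb was still low at 1.83, 2.75 and 1.51 CPM at day 2 and stood at 52.1 ± 9.10 CPM at day 5.

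Lipid mediator genes held some of the largest changes in either direction. Lipg, endothelial lipase, was at 0.149, 0.0387 and 0.0887 CPM untreated and 314, 282 and 219 CPM at day 2, a log2 fold change of 11.49 ± 0.39 (SE; edgeR adjusted p = 6.22e-13). Hpgd, which inactivates prostaglandins, was at 40.4, 43.1 and 49.1 CPM untreated and had 3 reads in the day 2 libraries together, a ratio of 878 (95% counting interval 300.2 to 4261) of untreated over day 2. Alox5, the first enzyme of leukotriene synthesis, was at 15.4, 17.8 and 13.5 CPM untreated and 208, 212 and 191 CPM at day 2 and rose by 3.71 ± 0.19. The cyclooxygenases Ptgs1 and Ptgs2 rose by 1.42 ± 0.16 and 3.88 ± 0.40. Ptgs2, the inducible form, was at 1.44, 1.16 and 1.15 CPM untreated and 19.7, 21.1 and 14.6 CPM at day 2. Of the list 10 of 19 rose and 3 fell, against 22% and 21.7% of all tested genes.

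Other genes with large changes belonged to many functions. Pknox2, a TALE homeobox factor, had no read untreated and was at 15.6, 12.8 and 10.4 CPM at day 2, at least 299.6-fold higher. Nov, a matricellular CCN protein, was at 0.149, 0.193 and 0.0444 CPM untreated and 82.2, 101 and 103 CPM at day 2. Inhba, the activin A subunit, had 3 reads untreated and was at 38.4, 32.8 and 32.1 CPM at day 2, a ratio of 793 (95% counting interval 271 to 3848). Avil, advillin, and Dmkn, dermokine, were at 17.3, 13.5 and 14.4 CPM and 23.6, 20.1 and 19.1 CPM at day 2, from 0.0497, 0 and 0 CPM and 0.0497, 0.0387 and 0 CPM. All of these were near 0 in each untreated library. Among the falls, Eltd1, an adhesion receptor, was at 206, 184 and 182 CPM untreated and 5.05, 4.70 and 3.499 CPM at day 2. Tgm2, a transglutaminase, was at 30.5, 27.5 and 23.1 CPM untreated and 0.784, 0.459 and 0.313 CPM at day 2. Il12a, an IL-12 subunit, was at 51.5, 59.6 and 42.9 CPM untreated and 1.66, 2.01 and 1.62 CPM at day 2. Their groups did not overlap, and they fell by 5.43, 5.65 and 4.87.

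The genes with the largest losses of mean CPM after Mpo, Ccr2 and Ctsg were Serinc3, Eef1a1, H2afy, Dnajc10 and Pdcd4. Serinc3, a membrane protein that incorporates serine into lipids, was at 1466, 1473 and 1471 CPM untreated and 548, 656 and 617 CPM at day 2 and fell by 1.28 (SE 0.16). Dnajc10, a reductase of the endoplasmic reticulum, was at 959, 947 and 922 CPM untreated and 324, 393 and 366 CPM at day 2 and fell by 1.39 (SE 0.14). Eef1a1, the translation elongation factor, was lower at day 2 without overlap but did not pass (-0.19 ± 0.13). It passed with library size alone (-0.36) and with only the 6 libraries compared (-0.20). Pdcd4, an inhibitor of translation, was at 555, 595 and 597 CPM untreated and 24.4, 26.3 and 23.2 CPM at day 2 and fell by 4.56 (SE 0.17). H2afy, the gene of the histone macroH2A, was at 957, 1143 and 970.0 CPM untreated and 338, 315 and 353 CPM at day 2 and fell by 1.61 (SE 0.17). Among the gains were those of stefin A genes. Gm5483 was at 2.24, 4.53 and 2.08 CPM untreated and 3617, 4524 and 4155 CPM at day 2, and BC100530 at 1.94, 4.10 and 1.86 CPM untreated and 2466, 3605 and 3044 CPM at day 2, both without overlap. Of the cytoskeleton, Actb, beta actin, was at 2055, 2793 and 2223 CPM untreated and 5479, 5124 and 5423 CPM at day 2. Tmsb4x, thymosin beta 4, was at 904, 1293 and 823 CPM untreated and 2458, 3176 and 3212 CPM at day 2. Both were among the 8 largest gains of mean CPM, by 1.18 ± 0.27 and 1.55 ± 0.21 on the log2 scale.

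Amino acid supply genes rose in 24 of 36 cases and fell in 2, with a median of 0.60; with library size alone 20 rose and 2 fell. Slc7a11, the cystine importer, was at 31.6, 22.1 and 20.7 CPM untreated and 1159.7, 1263 and 805 CPM at day 2. Every day 2 library exceeded the untreated ones by a wide margin, a log2 fold change of 5.44 ± 0.32 (SE; edgeR adjusted p = 2.56e-10). Its partner chain Slc3a2 was at 120.0, 141 and 129 CPM untreated and 458, 377 and 377 CPM at day 2. Cth, which makes cysteine from cystathionine, was at 1.89, 1.93 and 1.69 CPM untreated and 20.7, 18.9 and 21.5 CPM at day 2. The 2 genes rose with no overlap, by 1.64 ± 0.19 and 3.47 ± 0.26. Atf4, the factor that drives these genes when amino acids are short, was at 202, 269 and 223 CPM untreated and 400.1, 439 and 428 CPM at day 2 and rose by 0.87 ± 0.14. Its target Trib3, a pseudokinase, rose by 3.53 ± 0.28. The serine synthesis genes Phgdh and Psat1 did not pass, at 0.00 ± 0.18 and -0.01 ± 0.12.

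The composite C/EBP and ATF motif TGATGNAA was present in 3.97% of all promoter windows and in 4.51% of genes with a window. Of the amino acid list, 12 of 30 genes with a window held it, 7 of them raised and 2 lowered, and 11 of the 18 risers with a window lack it there. The stretches below set 5 genes that rose beside Chac1, which did not pass, and Pycr1, which was lower, because both sets hold the letters. Capitals mark the motif or its reverse complement, 5′ to 3′ on the strand of the gene. The genes are Slc7a11 (chr3:50443623-50443709, minus strand), Atf3 (chr1:191183406-191183473, minus strand), Nupr1 (chr7:126625543-126625610, minus strand), Asns (chr6:7693210-7693262, minus strand), Gars (chr6:55037941-55038000, plus strand), Chac1 (chr2:119351019-119351086, plus strand) and Pycr1 (chr11:120643814-120643881, minus strand).
Slc7a11: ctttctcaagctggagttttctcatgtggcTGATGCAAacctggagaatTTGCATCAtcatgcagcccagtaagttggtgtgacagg
Atf3: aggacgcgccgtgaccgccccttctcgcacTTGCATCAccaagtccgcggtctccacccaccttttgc
Nupr1: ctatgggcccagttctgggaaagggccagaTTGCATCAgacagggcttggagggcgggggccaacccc
Asns: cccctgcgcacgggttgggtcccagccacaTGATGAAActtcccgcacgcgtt
Gars: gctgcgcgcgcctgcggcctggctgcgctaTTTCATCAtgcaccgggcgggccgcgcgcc
Chac1: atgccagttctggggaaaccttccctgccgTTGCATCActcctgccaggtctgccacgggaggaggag
Pycr1: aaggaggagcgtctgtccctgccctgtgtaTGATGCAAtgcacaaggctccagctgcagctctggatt
Slc7a11 has 2 copies. The stress factors Atf3 and Nupr1, asparagine synthetase Asns and glycyl-tRNA synthetase Gars rose by 2.42 ± 0.35, 2.92 ± 0.27, 0.63 ± 0.11 and 0.52 ± 0.10. Chac1, which degrades glutathione and holds the same TTGCATCA letters as Atf3 and Nupr1, was at 2.44, 3.79 and 2.26 CPM untreated and 4.31, 3.33 and 4.54 CPM at day 2, with overlap, and did not pass (0.52 ± 0.30). Pycr1, an enzyme of proline synthesis, was at 3.08, 4.41 and 4.13 CPM untreated and 2.53, 2.07 and 2.14 CPM at day 2, with an edgeR adjusted p of 0.0319 that no longer passed without any 1 of untreated replicates 2 (-0.67) and 3 (-0.73) or of day 2 replicates 1 (-0.87), 2 (-0.72) and 3 (-0.75).

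The glucose transporter Slc2a3 was at 5.67, 7.93 and 6.74 CPM untreated and 48.4, 75.4 and 62.6 CPM at day 2. Hk2, hexokinase, was at 114, 112 and 111 CPM untreated and 253, 257 and 247 CPM at day 2. They rose without overlap, by 3.19 ± 0.26 and 1.17 ± 0.11. Pdk1, which holds pyruvate out of the mitochondrial cycle, was at 89.8, 92.3 and 99.8 CPM untreated and 37.9, 40.3 and 44.3 CPM at day 2 and fell by 1.202 (SE 0.21). The glycolysis and hypoxia list had 16 of 27 raised and 3 lowered, but 11 and 3 with library size alone. Xbp1, the factor of the unfolded protein response, was at 133, 147 and 133 CPM untreated and 421, 449 and 468 CPM at day 2 and rose by 1.70 ± 0.12, in a list with 12 of 18 raised (8 with library size alone). Of 10 heat shock genes 7 rose (6 with library size alone), among them the constitutive chaperone Hspa8 (0.82 ± 0.13).

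Of the sterol synthesis genes, Hsd17b7, a late enzyme, was at 22.7, 26.6 and 25.2 CPM untreated and 87.1, 99.5 and 72.0 CPM at day 2 and rose by 1.80 ± 0.17. Mvd, mevalonate diphosphate decarboxylase, rose by 1.70 ± 0.27. Hmgcs1, a regulated early enzyme, did not pass (0.17 ± 0.15). The sterol synthesis list had 13 of 24 raised and 1 lowered (11 and 1 with library size alone). Iron genes had 7 of 11 raised and 1 lowered. Slc40a1, the iron exporter ferroportin, was at 0.249, 0.310 and 0.355 CPM untreated and 41.3, 42.6 and 32.4 CPM at day 2 and rose by 6.95 ± 0.21. Hmox1, heme oxygenase, was at 8.65, 8.90 and 8.43 CPM untreated and 69.9, 59.96 and 56.7 CPM at day 2 and rose by 2.84 ± 0.24. Nucleolar genes of ribosome assembly rose in 10 of 25 cases (6 with library size alone), and of the 19 respiratory chain genes 2 rose and 1 fell. Of all tested genes 22% rose and 21.7% fell.

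Cell cycle genes gave a mixed record. The inhibitor Cdkn1a, p21, was at 31.9, 34.1 and 33.2 CPM untreated and 281, 269 and 283 CPM at day 2. The inhibitor Cdkn2b, p15, was at 0.249, 0.348 and 0.444 CPM untreated and 8.54, 13.02 and 10.5 CPM at day 2. Both rose without overlap, by 3.07 ± 0.22 and 4.91 ± 0.30. Cdkn1b, p27, was at 64.5, 65.2 and 62.6 CPM untreated and 32.3, 32.9 and 39.2 CPM at day 2 and fell by 0.88 (SE 0.14). The D cyclins Ccnd2 and Ccnd3 and cyclin E1, Ccne1, rose by 0.82 ± 0.12, 0.98 ± 0.23 and 1.51 ± 0.14. Of the G1/S and replication genes 4 of 28 rose and 10 fell (4 and 15 with library size alone), against 22% and 21.7% of all tested genes. The helicase subunit Mcm7 fell by 1.02 (SE 0.12), while Rrm2, the ribonucleotide reductase subunit, rose by 1.18 ± 0.15. Among G2/M genes 4 of 23 rose and 1 fell (3 and 5 with library size alone), and the proliferation marker Mki67 was at 1048, 700.1 and 1169.8 CPM untreated and 1169.8, 1040.1 and 889.8 CPM at day 2, with overlap.

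Targets of p53 rose in 15 of 17 cases and fell in 1, with a median of 1.96 (14 and 1 with library size alone), and Cdkn1a is one of them. Mdm2, the ligase that degrades p53, was at 77.7, 74.6 and 73.2 CPM untreated and 198, 200.4 and 179.6 CPM at day 2. Ccng1, cyclin G1, was at 245, 220.4 and 253 CPM untreated and 685, 803 and 683 CPM at day 2. They rose without overlap, by 1.36 ± 0.14 and 1.60 ± 0.15. The death gene Bbc3, PUMA, was at 8.60, 11.2 and 7.45 CPM untreated and 9.67, 8.09 and 10.3 CPM at day 2, with overlap, and did not pass (0.04 ± 0.26). Sesn1, sestrin 1, was the member that fell, by 1.16 (SE 0.15).

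Survival genes of the BCL2 family moved in both directions. Bcl2a1b was at 0, 0.0387 and 0.133 CPM untreated and 53.4, 56.9 and 66.4 CPM at day 2. Its copies Bcl2a1a and Bcl2a1d are nearly identical, so the split of reads among them is uncertain. Without untreated replicate 3, which held most of its reads before IL-3, the log2 fold change of Bcl2a1b was 11.04 against 9.83. Mcl1 was at 244, 259 and 263 CPM untreated and 369, 389 and 364 CPM at day 2 and rose by 0.55 ± 0.12. Bcl2 was at 92.6, 83.2 and 79.1 CPM untreated and 41.7, 54.7 and 42.2 CPM at day 2 and fell by 0.88 (SE 0.15). The BH3-only death gene Bmf was at 3.08, 3.44 and 3.64 CPM untreated and 0.479, 0.689 and 0.418 CPM at day 2 and fell by 2.68 (SE 0.32). Of the survival and death list 10 of 22 rose and 3 fell (8 and 5 with library size alone, under which its median turned negative). Of all tested genes 22% rose and 21.7% fell.

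Interferon and antigen processing genes fell more often than they rose. Of 30 tested genes of the interferon list 14 fell and 3 rose, with a median of -0.90. The median was -0.75 with the log2 fold change of 1 member set to 0. That member had no read in a group and 3 reads or fewer in the other. Psmb8, an immunoproteasome subunit, was at 185, 238 and 184 CPM untreated and 51.9, 61.3 and 72.7 CPM at day 2 and fell by 1.71 (SE 0.21). Its partner Psmb9 was at 33.6, 38.8 and 31.3 CPM untreated and 6.27, 6.25 and 6.95 CPM at day 2 and fell by 2.41 (SE 0.26). The factor Irf1 was at 30.5, 29.7 and 26.7 CPM untreated and 11.8, 11.7 and 12.8 CPM at day 2, and fell by 1.26 (SE 0.15). Genes of DNA methylation fell in 5 of 7 cases, and the other 2 did not pass. Dnmt3b, a de novo methyltransferase, was at 75.3, 70.1 and 68.6 CPM untreated and 17.8, 22.3 and 19.1 CPM at day 2. Tet1, which oxidizes methylated cytosine, was at 22.9, 13.9 and 17.2 CPM untreated and 1.13, 2.64 and 2.09 CPM at day 2. They fell by 1.86 (SE 0.13) and 3.22 (SE 0.37).

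The wild-type response differed from that of the P248L line in 1126 genes (9.43% of those tested, edgeR), 769 (6.44%) higher and 357 (2.99%) lower in wild-type cells. Of the 769, 581 rose in wild-type cells, 49 fell and 139 did not pass. Of the 357, 20 rose, 274 fell and 63 did not pass. These differences are the wild-type minus the P248L log2 fold change, tested as an interaction. Without the 2 P248L libraries that stood apart the count was 1343. The count moved with single libraries of either line. It was 784 without wild-type untreated replicate 1 and 825 without wild-type day 2 replicate 1. Without P248L untreated replicate 3 it was 1868, and without P248L day 2 replicate 1 it was 1905. Differences below are followed by their value without the 2 libraries that stood apart.

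In the P248L line 4762 genes (39.9%) changed by day 2. Kit fell in both lines and further in wild-type cells. In P248L cells it was at 305 ± 67.5 CPM untreated and 108 ± 7.86 CPM at day 2 (SD, n = 3), and the difference of responses was -2.65 ± 0.28 (SE; edgeR adjusted p = 7.58e-06). Without the libraries that stood apart it was -2.48. Csf2rb was at 64.1 ± 3.65 CPM and 76.3 ± 14.8 CPM in P248L cells, a difference of 1.45 ± 0.22 (edgeR adjusted p = 2.35e-04) or 1.37. Il3ra was at 6.25 ± 2.67 CPM and 1.34 ± 0.842 CPM in P248L cells, and its difference of 0.46 ± 0.51 or -0.23 did not pass (edgeR adjusted p = 0.612). Csf1r rose in P248L cells, from 5.24 ± 0.336 CPM to 9.86 ± 1.18 CPM, against its fall in wild-type cells, a difference of -2.57 ± 0.23 (edgeR adjusted p = 1.54e-06) or -2.44.

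Members of the cytokine target lists differed unequally between lines. Cish was at 7.32 ± 2.51 CPM and 119.9 ± 28.8 CPM in P248L cells, and its difference of 0.51 ± 0.27 or 0.09 did not pass (edgeR adjusted p = 0.264). Pim1 likewise did not pass, at 0.16 ± 0.19 or -0.02 (edgeR adjusted p = 0.653). Osm was at 10.3 ± 2.71 CPM and 24.7 ± 5.53 CPM in P248L cells, a difference of 3.03 ± 0.39 (edgeR adjusted p = 5.55e-05) or 2.70. Egr1 was at 5.96 ± 2.13 CPM in P248L cells at day 2 against 127 ± 19.3 CPM in wild-type cells, a difference of 3.67 ± 0.47 or 3.82. Dusp6 fell in P248L cells, from 91.9 ± 11.1 CPM to 14.49 ± 3.56 CPM, a difference of 2.43 ± 0.23 (edgeR adjusted p = 3.09e-06) or 2.55. Of the STAT5-responsive list 5 of 17 members had a higher wild-type response, and of the MAPK list 14 of 37 had a higher and 1 a lower one. Of all tested genes 6.44% had a higher and 2.99% a lower one. The median log2 fold change of the MAPK list was 0.01 in P248L cells.

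Granule and stress genes were among those with a higher wild-type response. Anxa1 was at 237 ± 10.3 CPM and 224 ± 32.3 CPM in P248L cells, a difference of 3.83 ± 0.22 (edgeR adjusted p = 3.11e-08) or 3.89. Slc7a11 was at 119 ± 27.4 CPM at day 2 in P248L cells, a difference of 2.92 ± 0.39 (edgeR adjusted p = 7.16e-05) or 3.28. Id2 and Cdkn1a rose in both lines and more in wild-type cells, by 2.69 ± 0.31 (or 2.51) and 1.88 ± 0.29 (or 1.49). Irf8 fell in both lines and further in wild-type cells, by a difference of -1.96 ± 0.26 or -1.80. Of the secondary and tertiary granule list 12 of 19 members had a higher wild-type response, against 6.44% of all tested genes.

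Among genes with a common symbol, which leaves out Gm, Rik and clone-type names, and at least 10 CPM in a group, the largest differences of response, 6 in each direction, were those of Cd177, Stfa3, Lama5, Cdkn2b, Stfa2 and Acvrl1 (higher in wild-type cells) and of Nrg2, S1pr3, Elavl2, Rassf4, Myl10 and Col4a2 (lower). Cd177 was at 0.211 ± 0.0945 CPM and 0.522 ± 0.0949 CPM in P248L cells, a difference of 8.17 ± 0.85 (edgeR adjusted p = 5.95e-06) or 8.31. The stefin A family gene BC100530, left out of the 6 for its clone-type name and named here after its values were seen, had a difference of 7.64 ± 0.82 (edgeR adjusted p = 8.26e-06) or 7.66, and was at 0.292 ± 0.145 CPM and 1.75 ± 0.535 CPM in P248L cells. Acvrl1, a receptor of the TGF-beta family, was at 0.199, 0.387 and 0.399 CPM untreated and 15.4, 16.2 and 10.1 CPM at day 2 in wild-type cells and at 0.946 ± 0.126 CPM and 0.276 ± 0.116 CPM in P248L cells. The inhibitor Cdkn2b had 1 read at day 2 in the P248L libraries together, and its difference of 8.08 was 7.03 without the libraries that stood apart, 7.34 without P248L untreated replicate 1 alone and 10.05 without P248L day 2 replicate 1. The differences of Stfa3 and Stfa2 no longer passed without P248L untreated replicate 2 (6.82 and 5.53). The laminin gene Lama5 was at 15.5, 18.8 and 11.1 CPM at day 2 in wild-type cells, and its difference of 8.09 was 9.88 without wild-type untreated replicate 1, 7.44 without replicate 2 and 8.75 without P248L day 2 replicate 1.

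The lower responses had several forms. S1pr3, a sphingosine receptor, was at 21.5, 21.0 and 18.9 CPM untreated and 0.479, 0.689 and 0.574 CPM at day 2 in wild-type cells and at 32.8 ± 2.34 CPM and 10.97 ± 1.76 CPM in P248L cells, a fall in both with a difference of -3.57 ± 0.28 or -3.61. Nrg2, neuregulin 2, was at 12.7, 10.7 and 14.8 CPM untreated and 0.566, 0.516 and 0.731 CPM at day 2 in wild-type cells and at 0.845 ± 0.100 CPM and 0.666 ± 0.131 CPM in P248L cells. Rassf4, a RAS association domain protein, did not pass in wild-type cells (0.02 ± 0.18) and was at 0.286 ± 0.0814 CPM and 3.51 ± 0.455 CPM in P248L cells. Elavl2, an RNA-binding protein, was at 0.261, 0.172 and 0.104 CPM at day 2 in wild-type cells and at 5.99 ± 0.847 CPM and 24.0 ± 5.88 CPM in P248L cells.

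**Figure D4:**
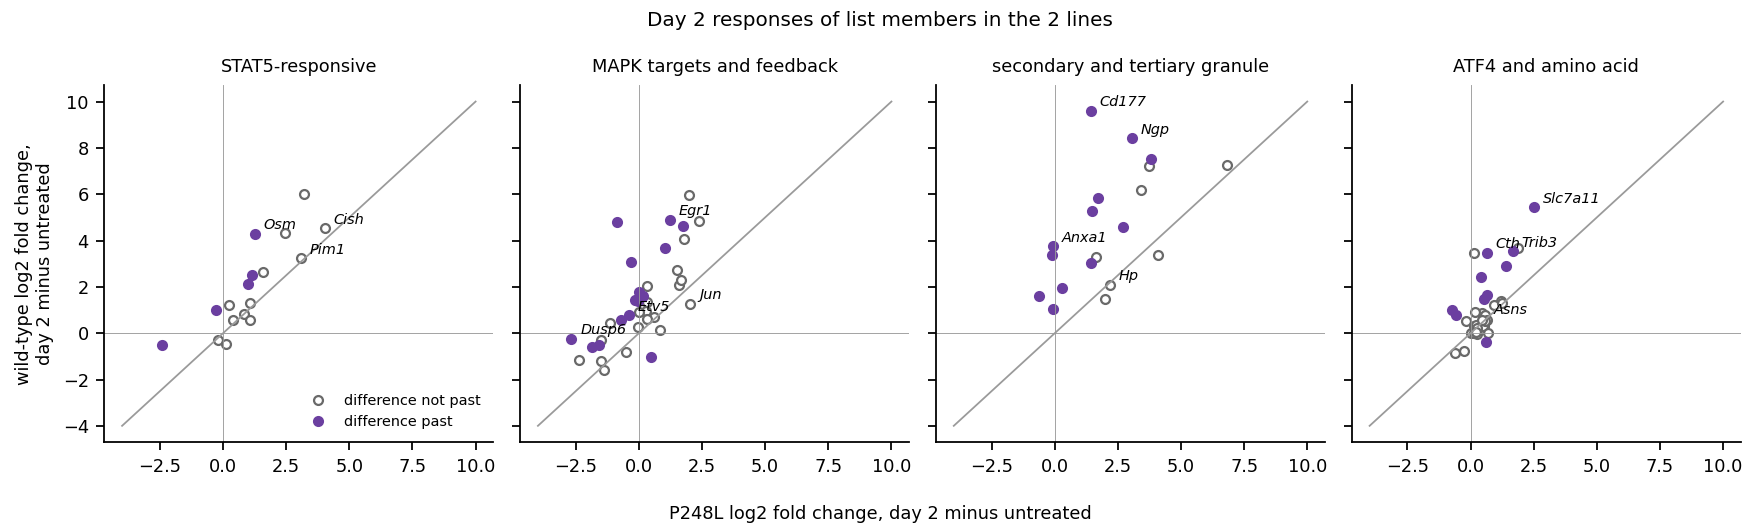
Log2 fold changes (day 2 minus untreated) of the tested members of 4 gene lists, with the P248L line on the x axis and the wild-type line on the y axis; the grey line marks equal responses, and filled points have a difference of responses past the threshold. Cd177, Anxa1, Osm, Egr1 and Slc7a11 lie above the line with filled points, whereas Cish and Pim1 lie near it with open points.

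Genes that changed in one direction were in places next to each other on a chromosome. A run was defined, after the values were seen, as 4 or more consecutive tested genes in RefSeq order (GRCm38.p6) that all changed at least 2-fold in one direction, where 19.9% of tested genes changed by that much in either direction. There were 17 runs, 11 raised and 6 lowered, with 86 genes in all. Members of a family share sequence, so their reads may not be fully apart, and no test of the runs was made.

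The stefin A run of 7 raised genes at chr16:36156811-36666158 held Stfa2, Stfa3, Stfa2l1, Gm5483 and the costimulatory gene Cd86, the last 3 with log2 fold changes of 9.02 ± 0.35, 10.42 ± 0.45 and 1.96 ± 0.54. A raised run of 5 genes of the IL-1 receptor family at chr1:40084692-40551707 held Il1rl1 and the decoy receptor Il1r2. Il1r2 was at 0.298, 0.0774 and 0.133 CPM untreated and 19.3, 19.3 and 23.2 CPM at day 2, a rise of 6.94 ± 0.31, and 7.56 without untreated replicate 1. Trem1 and Trem3, activating receptors of phagocytes, lay in a raised run of 5 genes at chr17:48099816-48275607 and rose by 2.56 ± 0.16 and 3.10 ± 0.22. Trem3 was at 10.8, 11.7 and 9.32 CPM untreated and 83.4, 91.6 and 99.0 CPM at day 2.

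The lowered runs were of defence genes in part. At chr5:104802246-105346476 a lowered run of 8 genes held 6 guanylate-binding protein genes of the interferon response, of which Gbp11 was at 2.44, 1.82 and 2.22 CPM untreated and 0, 0.115 and 0.157 CPM at day 2. Gimap6, a GTPase of immune cells, was at 20.3, 26.2 and 22.7 CPM untreated and 0.523, 1.43 and 0.574 CPM at day 2, in a lowered run of 8 genes at chr6:48647186-48845948 that also held Tmem176a and Tmem176b. These fell by 4.80 (SE 0.34), 3.16 (SE 0.41) and 3.75 (SE 0.31). Psmb9, Tap1, Psmb8, Tap2 and H2-Ob made a lowered run of 5 in the MHC region at chr17:34182030-34245908. The peptide transporter genes Tap1 and Tap2 fell by 1.34 (SE 0.15) and 1.91 (SE 0.23). H2-Ob, a chain of the class II modulator DO, was at 35.5, 41.7 and 34.4 CPM untreated and 1.53, 1.55 and 1.46 CPM at day 2 and fell by 4.62 (SE 0.23).

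**Figure D5:**
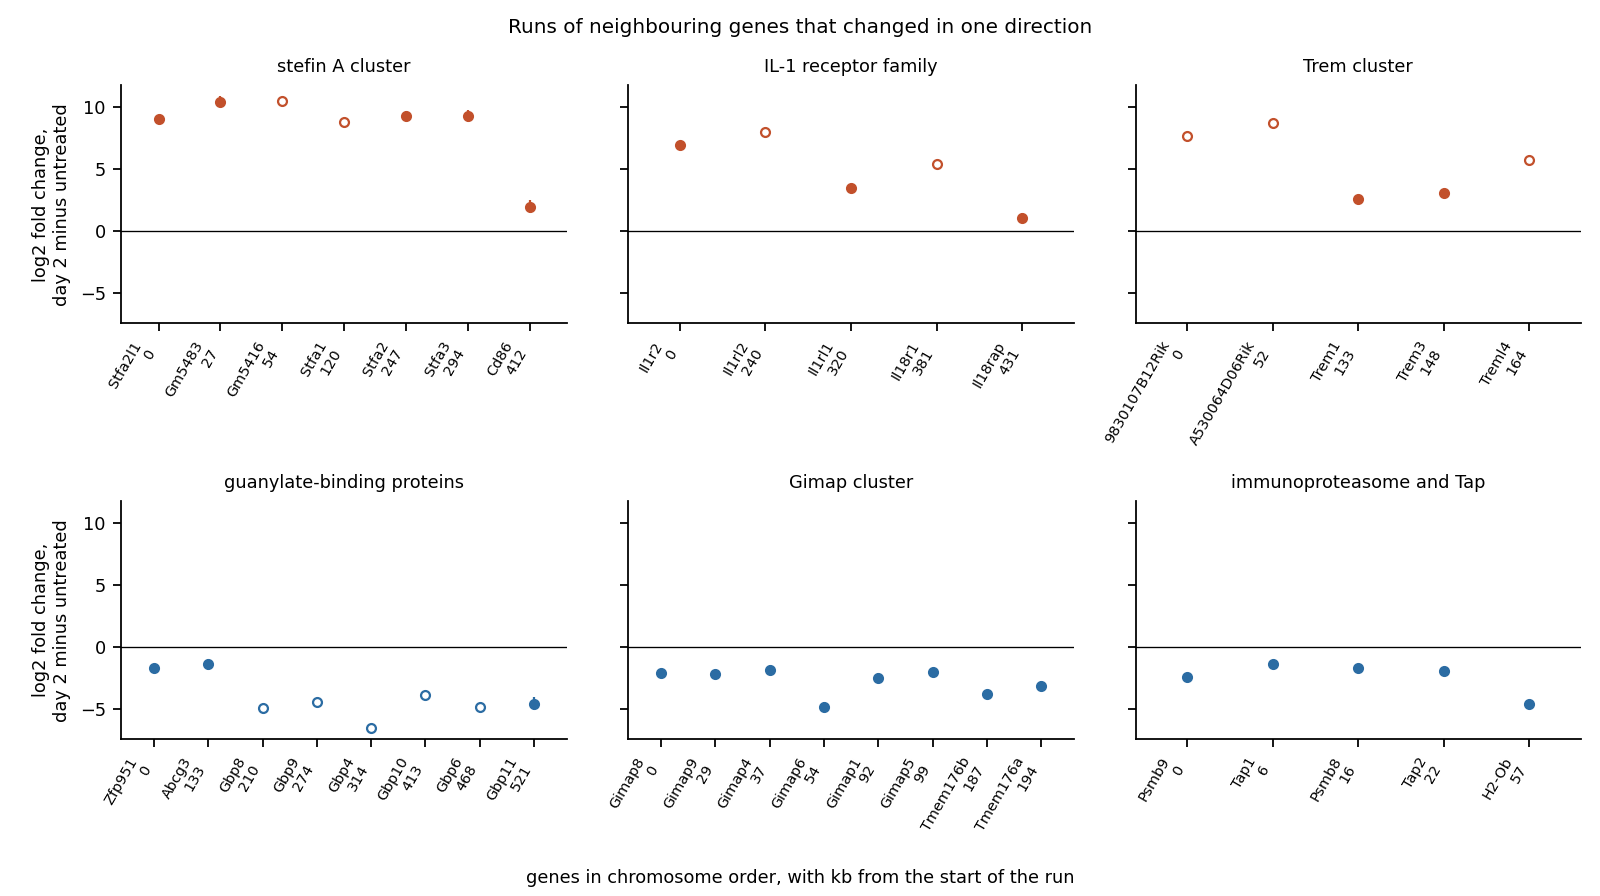
Log2 fold changes (day 2 minus untreated) of the genes of 6 runs, in chromosome order with the distance in kb from the start of the run under each name. Bars are the SE of the fit, and open points without a bar are genes with 3 reads or fewer in a group, whose fitted value is no bound; within a run every gene lies on one side of 0.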

How the data were processed

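RNA was sequenced from 18 libraries, of which 6 are compared here. The deposited files hold counts of reads per gene, made by the authors with STAR on mm10, per the submitters' processing notes. Neither the STAR version nor the annotation is stated in the labels. Of the 3 count columns in each file the last one was used, since it held nearly all strand-assigned reads (the opposite strand held 1.5 to 2.2%). The 4 summary entries per file were left out, and 30.7 to 33.4% of reads fell in no single gene.

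Counts of 23329 genes were filtered (filterByExpr, minimum count 10, 11942 genes kept), scaled by TMM and fitted with edgeR 4.0.16 (R 4.3.3), with 1 mean per group over all 18 libraries and a robust quasi-likelihood test. The SE is the log2 fold change divided by the square root of F. Ratios for groups with 1 to 3 reads have 95% counting intervals, which cover counting error only, and a group at 0 was set to a floor of 3 reads. The scripts were tested on simulated counts. Alternatives were DESeq2 1.42.0, other scalings, filters, strands and subsets of libraries.

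Genes named are the 12 largest rises and falls with at least 10 CPM, no overlap and a common symbol (no Gm, Rik, LOC, Mir, Snor or clone-type name), the 8 largest gains and losses of mean CPM, the 6 largest differences between lines in each direction under the same rule for level and symbol, the receptor genes, and members of 44 gene lists. The members and lists were chosen with earlier results of these data known. Replicate numbers did not pair the samples. Some genes are not reported here.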

Additional observations from a re-analysis of the deposited data

Results flagged for a closer look

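The results below are set apart because the day 2 response differed between the wild-type and the P248L line by a test of the difference itself, the interaction term of edgeR at an adjusted p under 0.05. That held for 1126 genes, 769 with a higher and 357 with a lower response in wild-type cells. Values are wild-type minus P248L log2 fold changes. Each receptor was studied in 1 line, so receptor and line cannot be told apart.

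Among receptors, the difference was -2.65 for Kit, 1.45 for Csf2rb, 1.61 for Csf2rb2, 1.299 for Csf2ra and -2.57 for Csf1r. Among cytokine and MAPK targets it was 3.67 for Egr1, 2.43 for Dusp6 and 3.03 for Osm. For Dusp6 the difference came with a fall in P248L cells and no call in wild-type cells in the fit of 18 libraries. With only the 6 wild-type libraries compared, Dusp6 was lowered past the threshold, at -0.25. Among factors it was 2.69 for Id2, -1.96 for Irf8 and 2.57 for Mxd1, a MAX partner that opposes MYC. For myeloid proteins it was 3.83 for Anxa1, 3.80 for the metalloprotease gene Adam8, 2.21 for Itgam, -1.61 for Mpo and 2.00 for Ccl9. It was 2.92 for Slc7a11 and 1.88 for Cdkn1a.

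Among genes with a common symbol (no Gm, Rik or clone-type name) the 6 largest positive differences were 8.17 for Cd177, 8.17 for Stfa3, 8.09 for Lama5, 8.08 for Cdkn2b, 7.63 for Stfa2 and 7.03 for Acvrl1. BC100530, which has a clone-type name and was chosen after its values were seen, was at 7.64. Cdkn2b had 1 read in the P248L day 2 libraries together, so its fitted value depends on the prior count. Stfa2 was at 8.84 and Stfa3 at 9.19 without P248L day 2 replicate 1, Stfa3 was at 8.77 without wild-type untreated replicate 2, and both calls were lost without P248L untreated replicate 2 (5.53 and 6.82). Under the same rule the 6 largest negative differences were -4.09 for Nrg2, -3.57 for S1pr3, -3.56 for Elavl2, -3.49 for Rassf4, -3.45 for Myl10 and -3.21 for Col4a2.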

How the results depend on the processing

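The 5223 changed genes ranged from 4419 to 6013 with 1 library left out at a time, the raised ones from 2235 to 3017, the lowered ones from 2140 to 2996 and those changed at least 2-fold from 2322 to 2447. Other settings gave 5358 (DESeq2), 5200 (DESeq2 size factors), 5297 (upper-quartile factors), 5402 (library size alone), 5146 (no filter), 5091 (a 1 CPM filter), 6727 (only the 6 libraries), 7127 (only the 9 wild-type libraries) and 5211 (both strands). Same-numbered untreated and day 2 libraries did not deviate together (correlations from -0.18 to 0.03), so the numbers were not taken as a pairing. With replicate number as a block 5309 genes changed in the fit of 18 libraries and 6189 in that of 6. Without the 2 P248L libraries that stood apart 6839 genes changed, 3446 raised and 3393 lowered. The difference between lines (1126 genes) ranged from 784 to 1905 with 1 library left out, with 1868 without P248L untreated replicate 3 and 1905 without P248L day 2 replicate 1, and the cause was not tested. DESeq2 called 1637 and the replicate block 1177. The P248L response (4762 genes) ranged from 3988 to 5494 and the wild-type change from day 2 to day 5 (8429 genes) from 7869 to 8987. Over up to 31 settings for the fold changes and differences of named genes, 7455 of 7489 values kept their direction and side of the threshold, 13 lost the threshold, 21 gained it and 0 reversed. Genes with 3 reads or fewer in a group have a fold change whose size the counts do not fix.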
